A study of Homo sapiens with 18 samples.

Results

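The genes described here encode the machinery that copies DNA and the enzymes that feed it with deoxynucleotides: 52 genes chosen by name for their known roles, with earlier results of these data known, of 17017 in the deposited table, which holds all 52. They were measured in MDA-MB-231, a mesenchymal triple-negative breast carcinoma line, transduced with lentiviral short hairpins against the mRNA of fibrillarin (FBL), the methyltransferase that modifies ribosomal RNA. Cells with a scramble hairpin (SC) were set beside cells with either of the hairpins labelled SH2 and SH3, all made with the same lentiviral backbone, selected in puromycin and treated with cycloheximide just before lysis. The labels do not tie SH2 and SH3 to the hairpin names of the protocol. Each of the 3 treatments had 3 numbered libraries of cytoplasmic input RNA (IN, here called RNA) and 3 of ribosome-protected fragments (RPF, here called footprints), 18 libraries in all. The numbers do not tie RNA to footprint libraries in every treatment: deviations from the group mean of RNA and footprint libraries with the same number correlated over genes at -0.49, -0.46 and 0.26 in SC and at -0.30, -0.31 and 0.50 in SH2, whereas number 1 of one kind and number 2 of the other correlated at 0.57 and 0.46 in SC and at 0.56 and 0.49 in SH2. In SH3 the same numbers gave 0.21 to 0.42.

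Total counts were 23469830 to 27629488 in RNA libraries and 1662705 to 6098648 in footprint libraries, of which the 52 genes took 59750 to 126248 and 6676 to 36868 counts. FBL RNA stood at 349 to 421 in SC (CPM, counts scaled to a common library size), 1.25 to 11.2 in SH2 and 2.95 to 4.15 in SH3, so the targeted gene followed the labels. VIM, CD44, EGFR, AXL, CAV1 and LGALS1 were abundant, which mark the line's mesenchymal type, and ESR1, PGR and CDH1 had at most 11 counts in any RNA library, while EPCAM, ERBB2 and KRT19, also listed as low, were present at 125 to 218 counts (EPCAM) and at 1923 or more (the other two). Of the markers of HEK-293T, the cells that packaged the virus, 3 of 4 were in the table, at 0 to 14 counts in RNA libraries. The labels do not say that replicates were separate cultures, so p-values measure the spread between these samples, which may be technical. The SC libraries serve the comparisons of both hairpins.

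Replication begins when the origin recognition complex, CDC6 and CDT1 load the ring-shaped MCM2-7 helicase on chromatin before S phase. Kinases and loading factors then join CDC45 and the GINS complex to the helicase, primase and DNA polymerase alpha start each strand, and polymerases delta and epsilon extend them on the PCNA clamp, which replication factor C (RFC) places on DNA. Many of these genes are transcribed in a wave before S phase under E2F factors, and ribonucleotide reductase, thymidylate synthase and thymidine kinase rise with them to make deoxynucleotides, which is why the set is read as a mark of proliferating cells.

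Because E2F control is the textbook link between these genes, the 250 bases before each RefSeq transcription start (GRCh38.p14) were searched on both strands for the E2F letters TTTGGCGC, TTTCCCGC, TTTCGCGC and TTTGCCGC. Promoter entries were found for 44 of the 52 genes. A match stood in 15 of the 44 (34.1%), against 662 of 13249 genes of the whole table with an entry (5.00%) and 2.79% of all 35116 promoter entries. The windows below are from 8 of the 15, 1 for each role, chosen as the matched gene whose RNA changed most. Capitals mark the E2F letters on either strand, and in TIPIN 2 matches on opposite strands overlap.
MCM7 (chr7:100101398-100101426, minus strand): cggtcacgtggggggcgacgTTTCGCGCc
GMNN (chr6:24775313-24775360, plus strand): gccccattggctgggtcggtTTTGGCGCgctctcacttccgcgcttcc
GINS2 (chr16:85688958-85689005, minus strand): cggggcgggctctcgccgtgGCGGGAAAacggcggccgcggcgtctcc
POLE (chr12:132687343-132687380, minus strand): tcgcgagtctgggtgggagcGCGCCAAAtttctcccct
RFC3 (chr13:33818074-33818121, plus strand): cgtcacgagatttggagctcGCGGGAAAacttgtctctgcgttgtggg
LIG1 (chr19:48170431-48170478, minus strand): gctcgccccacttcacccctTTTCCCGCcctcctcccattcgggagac
TIPIN (chr15:66356720-66356767, minus strand): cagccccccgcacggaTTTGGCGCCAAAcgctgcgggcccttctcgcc
TYMS (chr18:657594-657641, plus strand): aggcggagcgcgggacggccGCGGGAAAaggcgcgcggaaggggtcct
Both MCM7 and RFC3, whose values are given in full below, have a match near the start, at 9 and 55 bases before it. TIPIN has a paired match as well, and its RNA passed no test. RNA changes with and without a match are given as a description. Only these exact letters before the start were searched, so genes without a match may have other E2F sites. The part of E2F factors in the changes was not tested. In SH2, 13 of 15 genes with a match had lower RNA (median log2 change -1.05) and 28 of 29 without one did (median -1.04). In SH3 the counts were 9 of 15 (median -0.45) and 23 of 29 (median -0.68). The CCAAT box, spelled CCAAT, was found in 27 of 44 genes (61.4%, against 41.2% of the table). The cell cycle homology region, TTTGAA or TTCGAA, was found in 2 genes (4.5%, against 14.9% of the table). The E-box CACGTG was found in 5 (11.4%, against 10.4% of the table).

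RNA of the replication genes was lower in both knockdowns and more so in SH2. By edgeR's quasi-likelihood test with Benjamini-Hochberg adjustment over all 12710 genes tested, at an adjusted p under 0.05, 49 of 52 genes had lower RNA in SH2 and 0 had higher RNA, where 30.4% of all genes tested were lower. In SH3, 34 of 52 were lower and 0 higher, where 25.2% of all genes were lower. The median log2 change of the 52 genes was -1.0 in SH2 and -0.50 in SH3, against 0.01 and 0.03 over all genes tested. Log2 changes of single genes are given below ± SE. Summed over the 52 genes, RNA was 4668 ± 391 CPM (SD, n = 3) with the scramble hairpin, 2386 ± 153 in SH2 and 3134 ± 85.1 in SH3. In 48 genes every SH2 library lay below every SC library (31.9% of all genes tested did so), and in 32 every SH3 library did (29.6%). SC replicate 1 was the lowest of the 3 SC libraries in 44 of the 52 genes, and without it 50 genes were lower in SH2 and 37 in SH3.

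**Figure D1:**
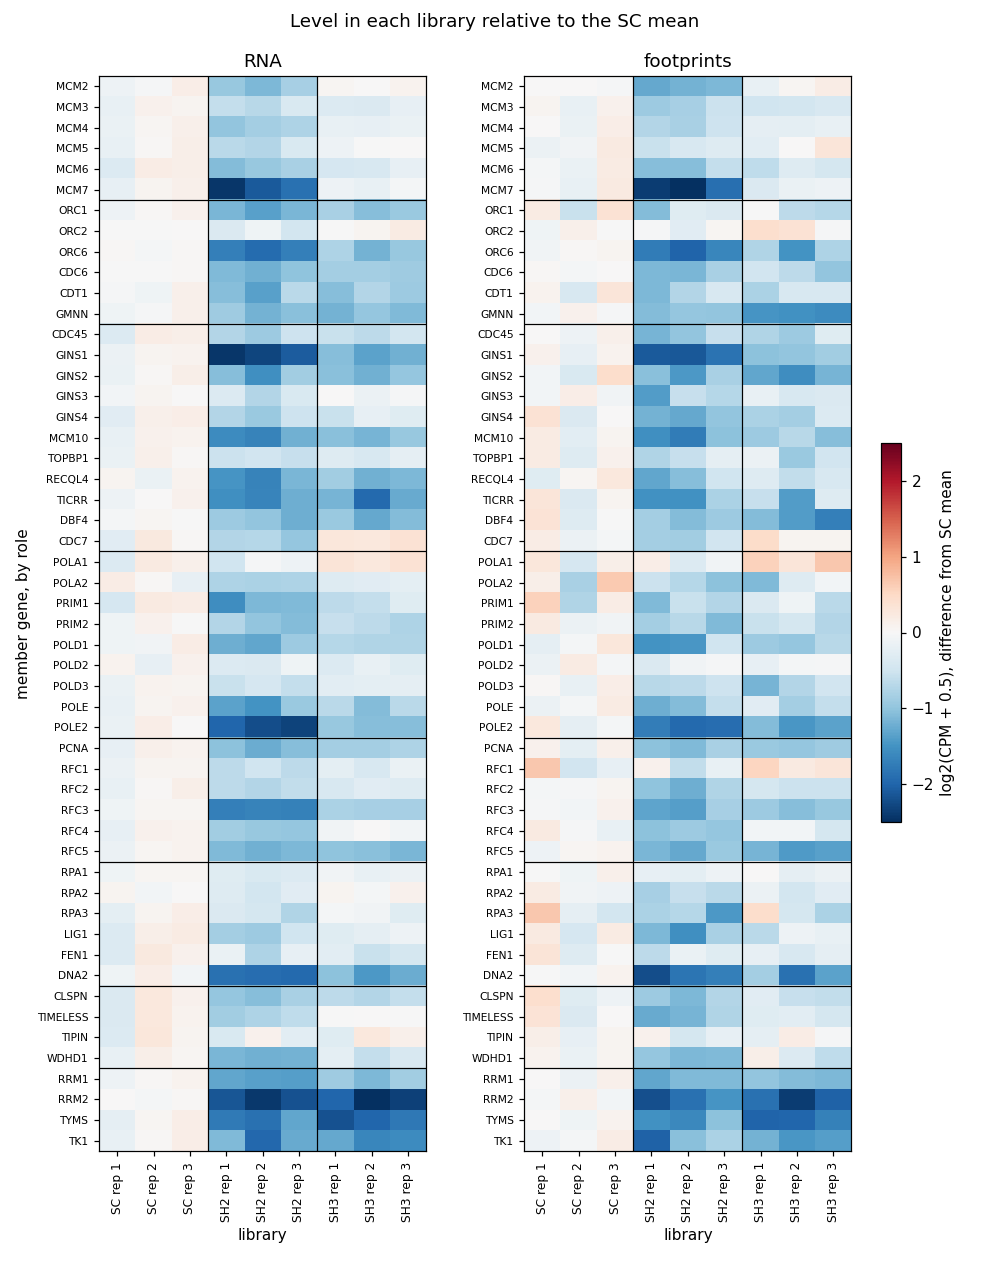
Level of each of the 52 genes (rows, in blocks by role) in each library (columns), as the difference in log2(CPM + 0.5) from the SC mean, for RNA on the left and footprints on the right. Blue is lower than SC. In RNA, 48 genes are below every SC library in all 3 SH2 libraries and 32 in all 3 SH3 libraries.

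Markers of dividing cells moved the same way. All 8 proliferation markers listed (MKI67, CCNA2, CCNB1, CDK1, BUB1, PLK1, AURKA and CENPF) had lower RNA in both hairpins, with median log2 changes of -1.54 in SH2 and -1.58 in SH3. Their summed RNA was 1422 to 2137 CPM in the SC libraries, 578 to 740.1 in SH2 and 503 to 794 in SH3. These are bulk libraries, so fewer cells in S phase and less of each RNA per cell cannot be told apart, and the part of cell cycling in the changes below was not tested.

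The MCM2-7 helicase, the motor that unwinds DNA at the fork, had the largest median log2 difference between the hairpins of the 8 roles (-0.65 for SH2 against SH3). In SH2 all 6 subunit genes had lower RNA (median log2 change -0.92). In SH3, 2 of 6 did (median -0.16), near the 25.2% of all genes tested that were lower: MCM3 at -0.31 and MCM6 at -0.37. Summed MCM2-7 RNA was 852 ± 97.0 CPM with the scramble hairpin, 421 ± 44.6 in SH2 and 759 ± 30.8 in SH3 (SD, n = 3). MCM7 was at 195, 238 and 248 CPM in the SC libraries, 41.1, 52.3 and 61.8 in SH2 and 206, 198 and 219 in SH3. SH2 stood far below both other groups, while SH3 overlapped SC. Its log2 change was -2.13 ± 0.14 (adjusted p 4.52e-08) in SH2, -0.13 ± 0.13 (adjusted p 0.436) in SH3 and -2.00 ± 0.14 (adjusted p 2.16e-07) between SH2 and SH3. MCM7 footprints were 386, 345 and 460.4 CPM in SC, 75.4, 58.8 and 107 in SH2 and 308, 353 and 361 in SH3, with the same order of groups. Their log2 change was -2.31 ± 0.19 in SH2 and -0.22 ± 0.18 in SH3. MCM2 repeated the pattern at a smaller size: its RNA was 99.3, 107 and 121 CPM in SC, 56.0, 49.8 and 61.1 in SH2 and 112, 109.6 and 116 in SH3, a log2 difference between SH2 and SH3 of -1.01 ± 0.10 (adjusted p 7.34e-06). MCM4 and MCM5 were lower in SH2 (-0.88 and -0.60) and did not pass in SH3 (-0.19 and -0.05), and in both the direct test of SH2 against SH3 passed as well. MCM7 overlaps AP4M1, a neighbouring gene, in RefSeq, and the counting was not given in the sources used here, so reads of the overlap could be assigned to either. The same holds for GINS2, ORC1, PRIM2, RFC5, RPA3, TICRR, TOPBP1 and TYMS, 9 of the 52 genes in all.

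Licensing genes, which mark origins and load the helicase or restrain its loading, were lower in both hairpins. RNA of 6 of 6 was lower in SH2 (median -1.08) and of 5 of 6 in SH3 (median -0.93), the exception being ORC2, an origin recognition subunit, at 0.09 in SH3. ORC6, the smallest subunit of that complex, was at 29.7, 28.3 and 29.7 CPM in SC, 8.55, 7.34 and 8.57 in SH2 and 16.9, 12.7 and 14.9 in SH3. The groups did not overlap and SH3 lay between the others. The log2 change was -1.84 ± 0.13 (adjusted p 9.19e-08) in SH2 and -0.98 ± 0.12 (adjusted p 2.38e-05) in SH3, and the difference between hairpins was -0.86 ± 0.13 (adjusted p 0.000184). ORC6 footprints were 41.9, 45.0 and 46.2 CPM in SC, 12.9, 10.7 and 13.9 in SH2 and 26.3, 15.4 and 25.9 in SH3, from at least 35 counts a library. Their log2 change was -1.84 ± 0.21 in SH2 and -1.0 ± 0.20 in SH3, close to that of the RNA. CDC6, the loader's ATPase, was lower at -1.11 and -0.87. CDT1, its partner, was lower at -1.02 and -0.91, and GMNN (geminin), the inhibitor of CDT1, at -1.05 and -1.10. All 3 passed in both hairpins.

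Helicase activation genes were lower in RNA in 11 of 11 cases in SH2 (median -1.04) and 8 of 11 in SH3 (median -1.06). GINS1, a subunit of the GINS complex that rides with the helicase, was at 21.3, 24.7 and 25.2 CPM in SC, 3.96, 4.40 and 5.23 in SH2 and 11.1, 9.06 and 9.96 in SH3. The 3 groups were apart, with SH2 lowest. Its log2 change was -2.39 ± 0.15 (adjusted p 2.91e-08) in SH2, -1.24 ± 0.14 (adjusted p 7.26e-06) in SH3 and -1.15 ± 0.15 (adjusted p 4.58e-05) between them. GINS1 footprints were 46.3, 37.4 and 46.0 CPM in SC, 9.60, 9.53 and 11.6 in SH2 and 21.0, 21.5 and 23.4 in SH3. They kept the order of the RNA, with log2 changes of -2.09 ± 0.19 and -0.98 ± 0.18, of which the SH3 call was lost when footprint libraries were thinned to 1 depth (adjusted p 0.0516, range over the alternatives 5.95e-05 to 0.0516). Among the other GINS subunits, GINS2 was lower in both hairpins (-1.17 and -1.11), and GINS3 and GINS4 were lower in SH2 (-0.52 and -0.75) and did not pass in SH3 (-0.05 and -0.37). The DDK kinase, which fires origins, is a pair of subunits with unlike calls. DBF4, the activator, was lower in both (-1.04 and -1.10). CDC7, the catalytic subunit, was at 29.7, 42.8 and 36.8 CPM in SC, 21.6, 21.9 and 18.2 in SH2 and 44.2, 43.1 and 46.8 in SH3. SH2 was below SC, and each SH3 library was above it. The log2 change of CDC7 was -0.83 ± 0.13 (adjusted p 9.79e-05) in SH2 and 0.29 ± 0.13 (adjusted p 0.0679) in SH3, and -1.12 ± 0.13 (adjusted p 2.23e-05) between the hairpins. When libraries were scaled by their plain totals, CDC7 passed as higher in SH3. MCM10, RECQL4 and TICRR, which help assemble and start the helicase, were lower by 1.06 to 1.49 on the log2 scale in the 2 hairpins, TOPBP1 less so (-0.54 and -0.32), and CDC45 itself was lower at -0.75 and -0.58.

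**Figure D2:**
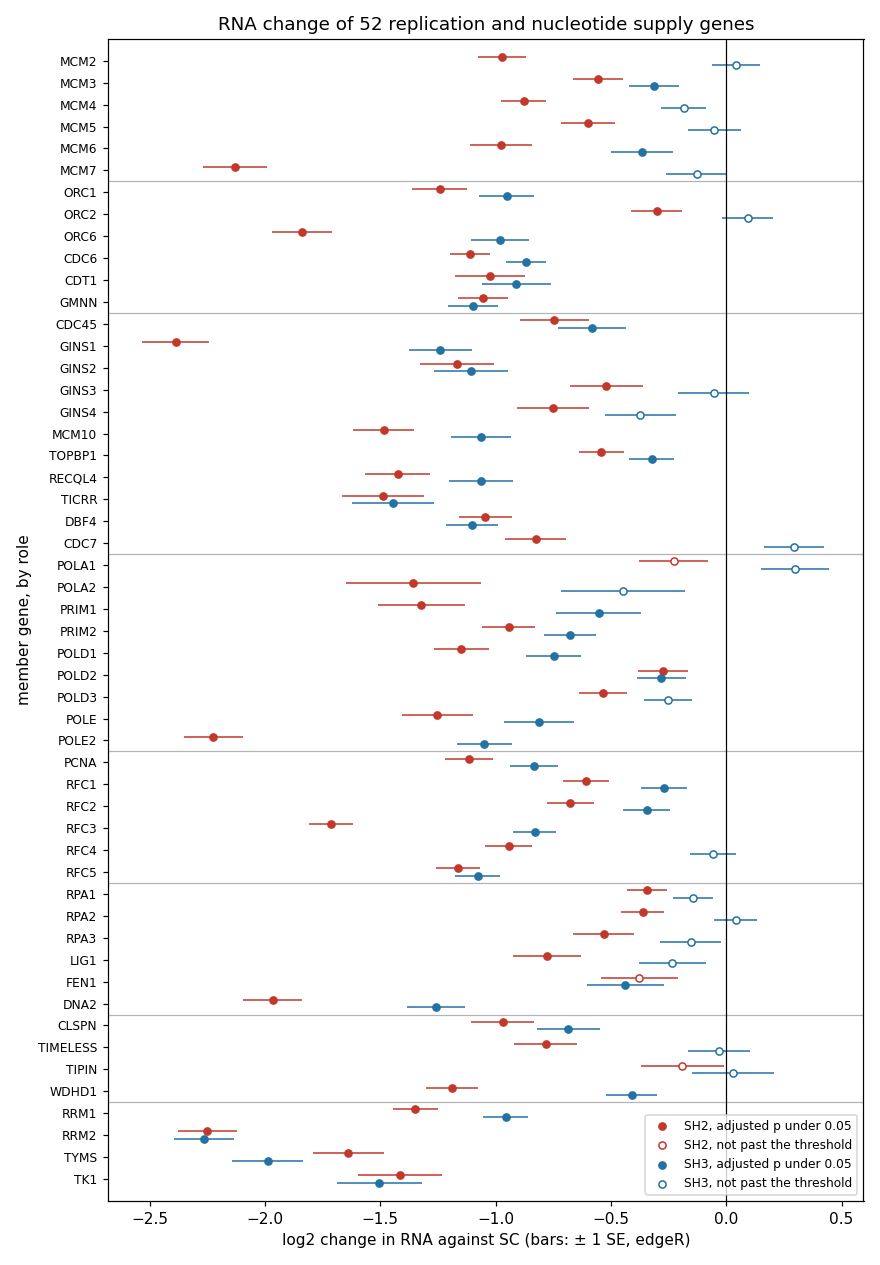
Log2 change in RNA against SC of each of the 52 genes in SH2 (red) and SH3 (blue), with bars of 1 SE from edgeR. Filled points passed the adjusted p of 0.05. The MCM2-7 genes lie further left in SH2 than in SH3, the widest gap being MCM7 (-2.13 and -0.13), while RRM2 is near -2.25 in both.

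Polymerase and primase genes were lower in 8 of 9 cases in SH2 (median -1.15) and 6 of 9 in SH3 (median -0.55). POLE2, the second subunit of leading-strand polymerase epsilon, was at 42.8, 54.1 and 48.2 CPM in SC, 11.8, 10.0 and 9.24 in SH2 and 24.7, 22.7 and 22.8 in SH3. The groups were apart in the order SC, SH3, SH2. The log2 change was -2.22 ± 0.13 (adjusted p 1.91e-08) in SH2 and -1.05 ± 0.12 (adjusted p 1.01e-05) in SH3, with -1.17 ± 0.13 (adjusted p 1.03e-05) between the hairpins. POLE2 footprints were 42.9, 30.3 and 34.2 CPM in SC, 10.3, 8.84 and 9.04 in SH2 and 16.4, 12.6 and 13.6 in SH3. Footprints were lower in both hairpins (-1.95 ± 0.20 and -1.37 ± 0.20), and their difference between hairpins did not pass (-0.58 ± 0.23, adjusted p 0.0816). POLE, the catalytic subunit, was lower by less (-1.25 and -0.81). Of lagging-strand polymerase delta, POLD1, the catalytic subunit, was lower at -1.15 and -0.75, POLD2 at -0.27 and -0.28, and POLD3 at -0.54 in SH2 with -0.25, not past the test, in SH3. POLA1, the catalytic subunit of polymerase alpha, passed against SC in neither hairpin (-0.23 and 0.30), though the difference of SH2 against SH3 was -0.53 ± 0.15 (adjusted p 0.0123). With SC and SH2 alone in the edgeR fit and the replicate number as a block it passed as lower in SH2 (-0.24 ± 0.10, adjusted p 0.0470). The primase subunits PRIM1 and PRIM2, which work with it, were lower in both. POLA2, its accessory subunit, had 11 to 32 RNA counts and 1 to 18 footprint counts a library, and was too thin to test in footprints.

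Of the clamp and its loader, 6 of 6 genes were lower in SH2 (median -1.03) and 5 of 6 in SH3 (median -0.59). RFC3, a small subunit of the clamp loader, was at 53.3, 59.9 and 59.7 CPM in SC, 17.4, 17.8 and 17.5 in SH2 and 32.9, 32.0 and 32.3 in SH3. Replicates were tight and the groups apart, with log2 changes of -1.71 ± 0.09 (adjusted p 1.91e-08) and -0.83 ± 0.09 (adjusted p 7.53e-06). RFC3 footprints were 91.3, 90.0 and 100.4 CPM in SC, 37.3, 36.0 and 52.3 in SH2 and 49.6, 44.8 and 48.3 in SH3. Here the hairpins overlapped each other, both below SC, at -1.17 ± 0.16 and -0.99 ± 0.16. By subunit, RFC5 was lower in both hairpins (-1.16 and -1.08), and RFC4 was lower in SH2 (-0.94) with -0.06 in SH3, a difference between hairpins of -0.89 ± 0.10 (adjusted p 1.87e-05). PCNA, the clamp, was at 148, 188 and 182 CPM in SC, 84.0, 72.8 and 82.1 in SH2 and 95.6, 94.8 and 99.9 in SH3. Both hairpins were below SC, at -1.12 ± 0.10 and -0.84 ± 0.10.

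Single-strand binding and Okazaki fragment genes had the smallest median change of the 8 roles in SH2, -0.45 (5 of 6 lower). In SH3 their median was -0.19, and that of MCM2-7 was smaller. There 2 of 6 were lower, near the 25.2% of all genes tested that were. RPA1, RPA2 and RPA3, the subunits of the single-strand binding protein, which also serves repair, were lower in SH2 by 0.34 to 0.53 on the log2 scale and passed in none of the 3 cases in SH3. LIG1, the ligase that seals fragments, was lower at -0.78 in SH2 with -0.23 in SH3. FEN1, the flap nuclease, missed the threshold in SH2 (-0.38 ± 0.17, adjusted p 0.0634) and passed in SH3 (-0.44 ± 0.17, adjusted p 0.0401). With the replicate number as a block, edgeR called it in SH2 as well (-0.39 ± 0.16, adjusted p 0.0389; -0.40 ± 0.16, adjusted p 0.0355 with SC and SH2 alone in the fit). DNA2, a nuclease-helicase that trims long flaps, stood apart from these. DNA2 RNA was 36.7, 44.3 and 37.6 CPM in SC, 10.4, 10.1 and 9.81 in SH2 and 19.0, 14.3 and 16.3 in SH3. All groups were apart, with log2 changes of -1.97 ± 0.13 (adjusted p 4.75e-08) and -1.26 ± 0.12 (adjusted p 3.33e-06). DNA2 footprints were 35.6, 34.5 and 38.1 CPM in SC, 7.39, 9.77 and 10.7 in SH2 and 19.9, 9.57 and 14.0 in SH3, from as few as 20 counts. Both hairpins were below SC and overlapped each other, at -1.95 ± 0.23 and -1.37 ± 0.23.

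Among fork protection genes, 3 of 4 were lower in SH2 (median -0.88) and 2 of 4 in SH3 (median -0.22), where 30.4% and 25.2% of all genes tested were. CLSPN (claspin), the adaptor through which ATR activates CHK1 at stalled forks, was at 81.5, 125 and 113 CPM in SC, 53.4, 49.9 and 60.0 in SH2 and 66.6, 63.0 and 69.6 in SH3. Both hairpins lay below the lowest SC library, which was replicate 1. The log2 change was -0.97 ± 0.14 (adjusted p 3.54e-05) in SH2 and -0.68 ± 0.14 (adjusted p 0.000836) in SH3. CLSPN footprints were 153, 92.9 and 105 CPM in SC, 60.6, 52.1 and 68.8 in SH2 and 93.4, 76.2 and 74.1 in SH3. Here the SC library numbered 1 was the highest of its group, and SH3 overlapped SC. The footprint change was -0.97 ± 0.19 (adjusted p 0.000616) in SH2 and -0.55 ± 0.19 (adjusted p 0.0302) in SH3, and the latter call was lost without SC replicate 1, without SH3 replicate 2 and without SH3 replicate 3 (log2 change -0.29, -0.50 and -0.48), and also with plain totals and with thinned libraries (adjusted p over the alternatives 0.00695 to 0.200). WDHD1, which couples helicase and polymerase alpha, was lower at -1.19 and -0.41. TIMELESS was lower in SH2 (-0.78) with -0.03 in SH3, and TIPIN, its binding partner, passed in no comparison (-0.19 and 0.03).

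The nucleotide supply enzymes had the largest median change of the 8 roles in both hairpins, and in 3 of 4 genes no difference between the hairpins was called. All 4 genes were lower in SH2 (median -1.53) and in SH3 (median -1.75), and their summed RNA was 832 ± 68.1 CPM with the scramble hairpin, 263 ± 32.1 in SH2 and 265 ± 20.4 in SH3 (SD, n = 3). RRM2, the small subunit of ribonucleotide reductase that peaks in S phase, was at 225, 217 and 228 CPM in SC, 50.3, 41.6 and 49.1 in SH2 and 56.3, 39.1 and 44.1 in SH3. Both hairpins were far below SC and overlapped each other. The log2 change was -2.25 ± 0.13 (adjusted p 1.91e-08) in SH2 and -2.26 ± 0.13 (adjusted p 5.39e-08) in SH3, and the difference between hairpins was 0.02 ± 0.12 (adjusted p 0.935). RRM2 footprints were 321, 364 and 319 CPM in SC, 72.0, 91.8 and 119 in SH2 and 91.1, 64.2 and 81.5 in SH3. Their log2 change was -1.82 ± 0.18 and -2.09 ± 0.18, the same grouping as in RNA. TYMS, thymidylate synthase, was at 249, 299.8 and 324 CPM in SC, 84.3, 78.7 and 117 in SH2 and 64.0, 73.0 and 83.2 in SH3, log2 changes of -1.64 ± 0.15 and -1.99 ± 0.15. Its difference between hairpins, 0.35 ± 0.15 (adjusted p 0.0801), passed as higher in SH2 without SH2 replicate 2. TK1, the salvage kinase for thymidine, was lower at -1.41 and -1.50, and RRM1, the large reductase subunit, at -1.35 and -0.96, with SH2 below SH3 (-0.39 ± 0.10, adjusted p 0.00581).

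**Figure D3:**
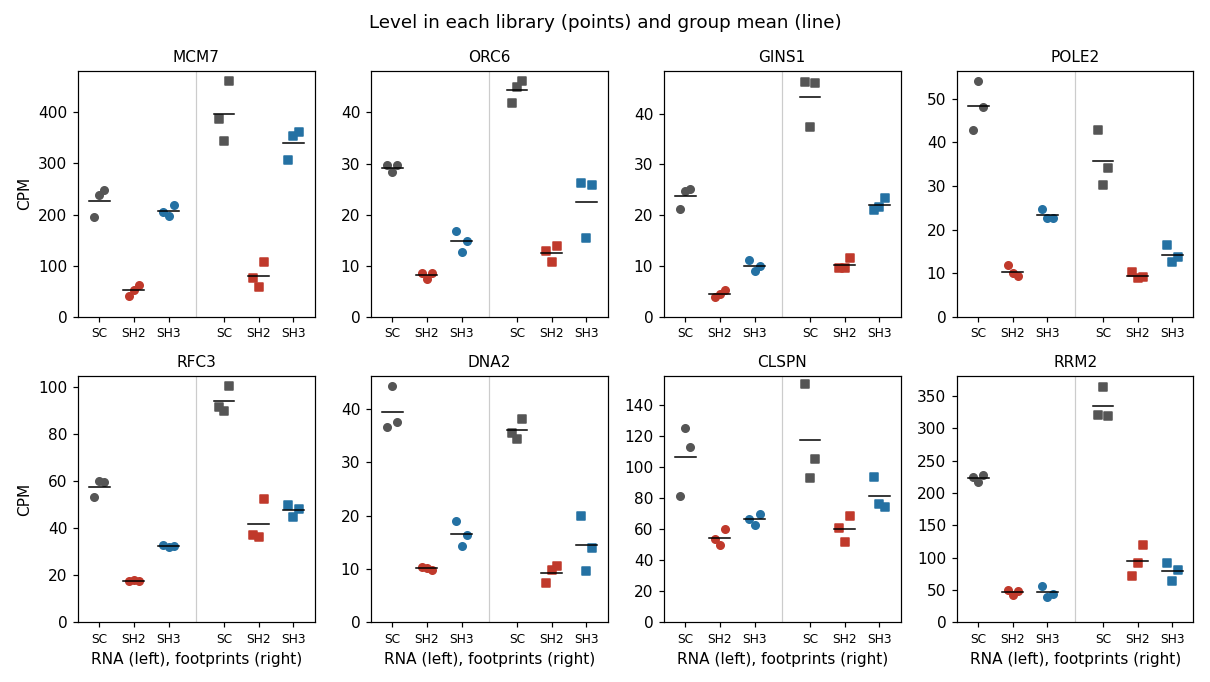
CPM in each library (points) with group means (lines) for the gene of each role with the largest mean RNA change, RNA as circles on the left of each panel and footprints as squares on the right, axes from 0. SH2 is below SC in every panel, whereas MCM7 in SH3 overlaps SC and RRM2 overlaps between the hairpins.

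Set against each other, the hairpins differed in 31 of 52 genes, all lower in SH2, where 20.4% of all genes tested were lower in SH2 (median log2 difference -0.38). Leaving out SH3 replicate 3 brought this count to 19, and leaving out any other SH2 or SH3 library gave 21 to 28. By pattern, 16 genes were lower in both hairpins and lower again in SH2, among them GINS1, POLE2, ORC6, RFC3 and DNA2. A further 17 were lower in both with no difference called, among them RRM2, TYMS, TK1, GMNN and RFC5. Another 14 passed in SH2, missed the threshold in SH3 and were called different between the hairpins: MCM2, MCM4, MCM5, MCM7, ORC2, GINS3, CDC7, POLA2, POLD3, RFC4, RPA2, RPA3, LIG1 and TIMELESS. The shares of these patterns over all genes were not computed. CDKN1A, an inhibitor of cyclin-dependent kinases, also differed between the hairpins: its RNA was higher in SH2 by 1.48 and lower in SH3, at -0.64, a difference of 2.11 (adjusted p 8.93e-08). Of the 7 listed CDK inhibitors 5 could be tested. In SH2, 3 were higher and 1 was lower, where 31.1% and 30.4% of all genes tested were. In SH3 it was 2 and 3, where 27.8% and 25.2% of all genes were. Summed RNA of the 6 in the table was 131 to 139 CPM in the SC libraries, 221 to 261 in SH2 and 114 to 125 in SH3. Their summed footprints were 183 to 205 CPM in SC, 345 to 374 in SH2 and 268 to 274 in SH3, where SH3 was above SC. CDKN1A itself had footprint changes of 1.08 in SH2 and -0.63 in SH3. The part of CDK inhibitors in the difference between hairpins was not tested.

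Ribosome footprints were lower as well. Of 51 genes tested, 43 had lower footprints in SH2, where 23.2% of all 10345 genes tested were lower, and 26 in SH3, where 19.0% were. None was higher in either. Median log2 changes were -0.99 and -0.56. The summed footprint level was 5739 ± 430 CPM with the scramble hairpin, 2920 ± 289 in SH2 and 3775 ± 118 in SH3 (SD, n = 3). In SH2, 43 genes passed as lower in both RNA and footprints, 5 in RNA and not in footprints, and 0 in opposite directions. In SH3, 24 passed in both, 10 in RNA alone and 2 in footprints alone. Between hairpins, 12 genes had lower footprints in SH2 (11.6% of all genes did) and 2, GMNN and TYMS, had higher ones (12.1%). GMNN footprints were 168, 190.0 and 172 CPM in SC, 83.1, 90.2 and 89.4 in SH2 and 63.1, 61.1 and 59.5 in SH3, a difference of 0.52 ± 0.13 (adjusted p 0.00992), while its RNA difference did not pass (0.05 ± 0.11, adjusted p 0.768). TYMS footprints were 306, 282 and 322 CPM, 106, 98.1 and 149 and 74.8, 76.2 and 93.7 in the same order, a difference of 0.52 ± 0.17 (adjusted p 0.0334). The 14 calls came to 8 without SH2 replicate 2, to 9 without SH3 replicate 2 and to 7 when footprint libraries were thinned to 1 depth, where neither GMNN nor TYMS was called. TYMS was also no longer called with plain library totals, without SH2 replicate 3, without SH3 replicate 1 and without SH3 replicate 2.

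**Figure D4:**
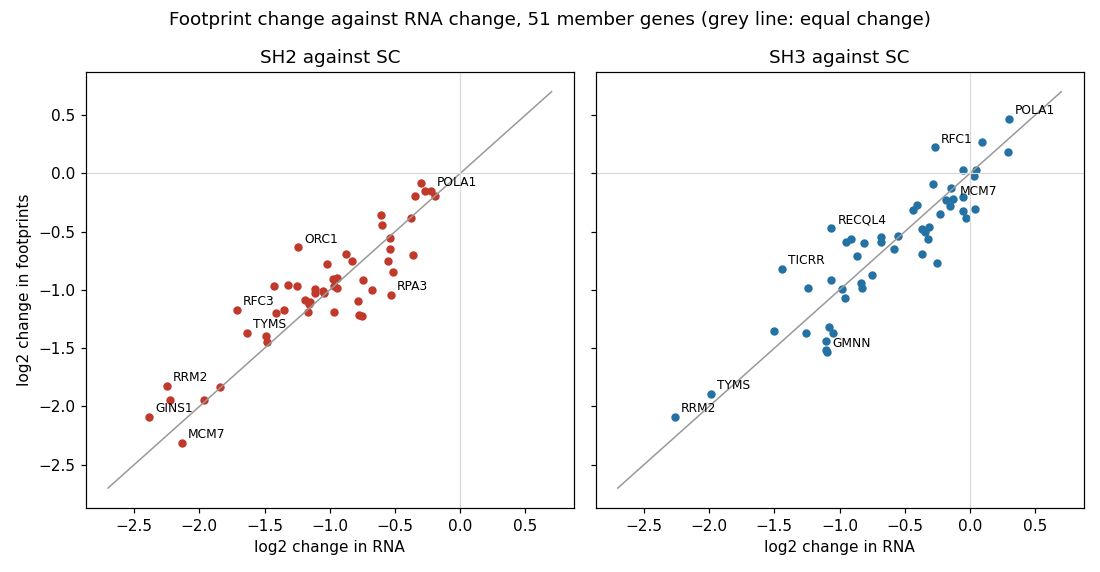
Log2 change in footprints against log2 change in RNA for the 51 genes tested in both, SH2 on the left and SH3 on the right, with the line of equal change. Points lie along the line, and no gene passed in opposite directions in RNA and footprints. How often this holds over all genes was not computed. In SH3 fewer genes pass in footprints (26) than in RNA (34).

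Translational efficiency, the footprint level for a given amount of RNA, was tested as the interaction of treatment and library kind in 1 edgeR fit over all 18 libraries. Among the 52 genes, 0 passed in SH2 (3.90% of all 12531 genes tested did), 0 in SH3 (0.686%) and 0 between the hairpins (0.0160%). At an unadjusted p under 0.05 there were 2, 3 and 3 of the 52 genes, where 17.9%, 12.6% and 11.7% of all genes tested were, and DESeq2 called 1, 0 and 1. Both DESeq2 calls were RFC3, whose efficiency change by edgeR was 0.53 ± 0.17 (adjusted p 0.0882) in SH2 and 0.68 ± 0.18 (adjusted p 0.131) between hairpins, against -0.15 ± 0.17 (adjusted p 0.787) in SH3. In SH2 the log2 change of RFC3 was -1.17 in footprints and -1.71 in RNA. GMNN was among the unadjusted ones, at -0.42 ± 0.15 (adjusted p 0.229) in SH3. The median change of the 52 genes was 0.03 in SH2 and -0.05 in SH3, and single genes ranged from -0.53 to 0.58 and from -0.51 to 0.61. These medians depended on the SC libraries: they were 0.20 and 0.11 without SC replicate 1, and -0.09 and -0.20 without SC replicate 2.

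In SC the ratio of group mean footprint CPM to group mean RNA CPM was taken within each gene. Its median was 0.19 on the log2 scale over 51 genes, against -0.17 over 10335 genes (interquartile range -0.90 to 0.41). The genes spread widely. The lowest were RECQL4 at -2.35 ± 0.19, TICRR at -1.99 ± 0.21, RFC1 at -1.92 ± 0.35 and TOPBP1 at -1.87 ± 0.18, and the highest were RPA3 at 1.52 ± 0.37, GMNN at 1.33 ± 0.08 and GINS3 at 1.31 ± 0.09 (± SE of the difference of 2 group means of log2 CPM, 3 libraries each, with no pairing by number). Neighbours named here differed by less than the sum of their errors. All 6 MCM2-7 genes were above the median over all genes, from MCM5 at 0.10 ± 0.15 to MCM6 at 0.87 ± 0.20. Each kind of library was scaled apart, so a ratio of 0 is no natural reference. The proteins form a ring with 1 copy of each, and footprints per codon were not computed to set beside it.

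Other genes of the same pathways were read from lists kept apart from the 52, also chosen with earlier results of these data known. Of all genes tested, 30.4% had lower and 31.1% higher RNA in SH2, and 25.2% and 27.8% in SH3. Of 27 other replication genes, 17 had lower RNA and 3 higher RNA in SH2, and 12 and 3 in SH3. PCLAF, a PCNA-binding factor, was lower at -1.74 and -1.72, while TOP1, the topoisomerase that also serves transcription, was higher at 0.35 and 0.63. The median of these replication genes was -0.60 in SH2 and -0.33 in SH3, and their highest change was 1.27 and 0.63. Of 32 other nucleotide supply genes, 19 were lower and 2 higher in SH2, and 11 and 3 in SH3. DCK, the deoxycytidine salvage kinase, was lower at -1.40 and -1.86, while GART, of purine synthesis, was higher at 0.34 and 0.52. The median of these supply genes was -0.40 in SH2 and -0.15 in SH3, and their highest change was 0.93 and 0.52. Of 8 fork chromatin assembly genes, 4 were lower and 1 higher in SH2. In SH3 it was 2 and 0, where the lower count is at the share over all genes. CHAF1B, a chromatin assembly factor subunit, was at -1.71 and -1.24, while the median of the 8 was -0.25 and -0.05. Their summed RNA was 1088 ± 144 CPM (SD, n = 3) in SC, 1043 ± 54.1 in SH2 and 1124 ± 45.8 in SH3. Of 19 E2F and DREAM regulators, 16 were lower and 3 higher in SH2, and 12 and 4 in SH3. The activator E2F1 was lower at -1.09 and -0.55, and MYBL2, a cell cycle activator, at -2.00 and -1.53. The highest changes in this list were 0.84 in SH2 and 0.88 in SH3.

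In the authors' deposited table of DESeq2 comparisons, at the same threshold, 50 of the 52 genes had lower RNA in SH2 and 36 in SH3. The authors' deposited table gave lower footprints for 40 and 26, and 0 higher in any of these.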

How the data were processed

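RNA and footprints were measured in 9 libraries each. Reads were aligned with Bowtie 1.2.2 and compared with DESeq2, per the submitters' processing notes; the build, annotation and counting step are not given in the sources used here. The authors deposited raw counts per gene, a signal column of counts divided by DESeq2 size factors (per the file headers, not used for tests), and log2 fold changes with p-values and adjusted p-values. The deposited ratio columns of both hairpins held identical values and were not used.

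Counts were filtered (filterByExpr, minimum count 10), scaled by TMM and fitted with edgeR 4.0.16 in R 4.3.3 (glmQLFit, glmQLFTest, two-sided), all 9 libraries of a kind together. Translational efficiency was an interaction over 18 libraries. Benjamini-Hochberg adjustment ran over all genes tested. CPM used TMM within each kind. Ratios of single genes used a pseudocount of 0.5, and the medians over genes were of ratios of group mean CPM without one. The common biological coefficient of variation was 11.6% for RNA and 15.1% for footprints. Scripts were tested on simulated data. Alternatives used DESeq2 1.42.0, other scalings and filters, fewer samples and blocks. Same-numbered SC and SH2 libraries deviated together in all 3 pairs (correlations over genes 0.33 to 0.37 in RNA and 0.24 to 0.29 in footprints), so by the data, not the labels, the numbers pair these. With SH3 only some same-numbered pairs did (-0.11 to 0.46 in RNA and -0.11 to 0.30 in footprints). Between RNA and footprints in SC and SH2 only number 3 did (0.26 and 0.50).

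The 52 genes, their roles and the other lists were chosen with earlier results of these data known. Values are given in every library for the gene of each role with the largest mean absolute RNA change over both hairpins among those called in RNA; MCM2, CDC7, PCNA, TYMS and GMNN were added after their values were seen, as were the genes named from the other lists. Promoter sequences and gene overlaps are from RefSeq (GRCh38.p14).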

Additional observations from a re-analysis of the deposited data

Results flagged for a closer look

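In 3 genes the direct test of SH2 against SH3 passed with a difference of more than 1 on the log2 scale in RNA and again in footprints, so the effects of the hairpins against their shared SC libraries differed. MCM7, a subunit of the replicative helicase, was lower in SH2 than in SH3 by a log2 difference of -2.00 in RNA and -2.09 in footprints. GINS1, of the GINS complex that rides with the helicase, differed by -1.15 and -1.11. MCM2, another helicase subunit, differed by -1.01 and -1.22. In RNA every SH2 library of the 3 genes was below every SH3 library. Choosing the genes by that difference made this likely, so it adds no separate evidence.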

How the results depend on the processing

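In RNA, 47 to 51 members were called in SH2 over 13 alternatives and 27 to 38 in SH3 over 12, against 49 and 34. Between the hairpins, leaving out 1 library gave 19 (without SH3 replicate 3) to 28, against 31. In footprints the counts were 39 to 45 in SH2 over 14 alternatives and 18 to 33 in SH3 over 13, against 43 and 26. Between hairpins, thinning the footprint libraries to 1 depth gave 7 and leaving out 1 library gave 8 to 14, against 14; thinning and fewer samples both leave less data, and other causes were not tested. In translational efficiency DESeq2's Wald test called 1 member in SH2 against SC and 1 in SH2 against SH3, RFC3 in both, and leaving out 1 library gave 0 to 1 in SH3 against SC, the 1 being RFC1 without SC replicate 1. Genes passed as higher in some settings for SH3: in RNA CDC7 with plain library totals, and CDC7 and POLA1 without SC replicate 2, and in footprints POLA1 and RFC1 without SC replicate 1. Plain totals moved the median RNA change of all genes to 0.10 in SH2 and 0.12 in SH3. No called value changed sign in any alternative run for the genes given in full. Their RNA calls were never lost, and 10 of their footprint calls over all settings were: CLSPN in SH3 (5 settings), ORC6 between hairpins (4) and GINS1 in SH3 (1, thinned, adjusted p 0.0516, range 5.95e-05 to 0.0516).

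With a replicate block, 50, 38 and 35 members were called in RNA (SH2, SH3, SH2 against SH3), 43, 30 and 20 in footprints and 0 in each test of translational efficiency; no member's call was lost. Calls gained included FEN1 in SH2 RNA, CDC7 and POLA1 higher in SH3 RNA, POLA1 higher in SH3 footprints, TYMS higher in SH2 than in SH3 in RNA, and 6 lower in SH2 than in SH3 in footprints, POLE2 among them (adjusted p 0.0483 by edgeR, range over its alternatives 0.0483 to 0.257). A block fit of SC and SH2 alone, added after seeing the data, called 51 members in RNA, 43 in footprints and 0 by efficiency. Outside SC with SH2 the numbers were not shown to pair libraries across treatments (same-numbered correlations -0.11 to 0.46 in RNA and -0.11 to 0.30 in footprints; 4 of 6 RNA and 2 of 6 footprint libraries correlated best with their own number in each pairing with SH3). Since not every number ties RNA to footprints in SC and SH2, leaving out a number in the translational efficiency test may remove unrelated libraries. A footprint density per codon was planned and not run, since no protein sequences were used here. Footprint depth limits POLA2, TICRR, GINS3 and DBF4, whose lowest libraries had 1 to 17 counts.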

Other observations

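AP4M1, an adaptor complex subunit encoded beside MCM7 and overlapping it in RefSeq, was examined after the MCM7 values were seen. Its RNA was 14.6, 16.4 and 18.1 CPM in SC, 16.7, 13.2 and 17.8 in SH2 and 17.9, 20.1 and 16.0 in SH3. The log2 change by edgeR was -0.04 ± 0.14 in SH2 (adjusted p 0.815) and 0.14 ± 0.14 in SH3 (adjusted p 0.427), beside -2.13 for MCM7 in SH2.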
